A study of Mus musculus with 2 samples.

Results

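The genes described here encode the transcription factor NRF2, its inhibitor KEAP1 and enzymes and regulators that NRF2 is known to induce. The list names 10 genes: Nqo1, Srxn1, Osgin1, Gclm, Gclc, Txnrd1, Hmox1, Nfe2l2, Keap1 and G6pdx. Members were taken as probe sets annotated to exactly 1 gene whose symbol was in the list. This gave 9 genes of the 17874 in the table, each with 1 probe set, and G6pdx was not analysed here. The study hybridised RNA of CFU-E cells (colony-forming units, erythroid) to 2 Affymetrix mouse arrays. CFU-E cells are committed red cell progenitors that normally depend on erythropoietin. The cells came from fetal livers of embryos at gestational day 13.5, and both groups were EpoR-/-, without the erythropoietin receptor, in the BALB/c strain per the protocol. They were obtained from pools of 40 to 50 livers by lysis of red cells and removal of cells that carried surface markers of lymphoid, myeloid, megakaryocytic or late erythroid cells, so each array measured a pool of animals. After 1 h without growth factors the cells were either cultured in Panserin medium for a further 3 h (3 h, 1 array) or lysed at once (0 h, 1 array). By its treatment label the 3 h sample had supplemental growth factors, but by the protocol it had none. The genotype label reads Epo KO, whereas the protocol names the receptor, and the strain is labelled for the 0 h sample only. Since each group is 1 array, differences are given without error or test, and their precision is limited by the number of arrays. No wild-type array was analysed here.

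NRF2, encoded by Nfe2l2, is held in the cytoplasm and marked for degradation by KEAP1, a sensor protein whose cysteines react with oxidants and electrophiles. When that reaction blocks degradation, NRF2 enters the nucleus, pairs with a small MAF protein and binds antioxidant response elements near genes for glutathione synthesis, thioredoxin-dependent repair, quinone reduction and haem breakdown. Erythroid cells handle iron, haem and oxygen in large amounts, and these enzymes belong to their known antioxidant defences. NRF2 is regulated largely through the stability of its protein, which an array of RNA does not measure.

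Most of the measured members were higher at 3 h than at 0 h. Values are log2 expression after RMA, a method that corrects the background, gives the arrays one distribution and summarises the probes of each probe set, and a difference is the log2 value at 3 h minus that at 0 h. Genes entered the counts if at least 1 array gave 5.70 or more, a floor set at the median over all genes and both arrays. This held for 9284 genes and for all 9 measured members. Of these 9, 8 were higher at 3 h and 1, Osgin1, was lower, where 51.5% of all genes at or above the floor had a difference above 0 and 48.5% one below 0. At least 2-fold higher were 2 of the 9, Nqo1 and Srxn1, against 2.00% of all genes, and the same 2 were the members at least 1.5-fold higher, a threshold that 6.94% of all genes reached. No member was 1.5-fold or 2-fold lower, as 4.80% and 0.872% of all genes were. The median difference of the members was 0.39, and that of all genes at or above the floor was 0.01. These shares describe a pair of arrays and a list chosen with earlier results known, so they do not show that the list differs from other genes. All 9 members were above the floor on both arrays.

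**Figure D1:**
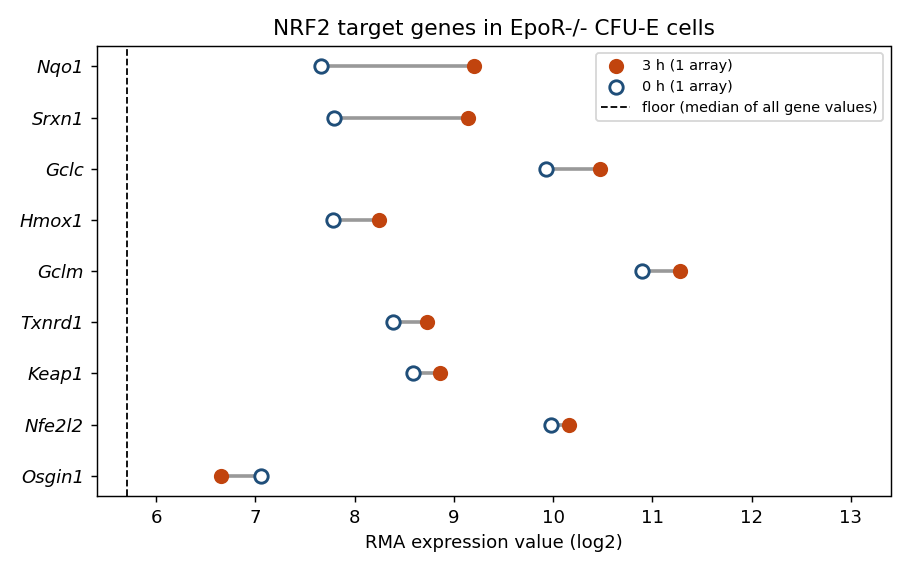
RMA expression values (log2, horizontal axis) of the 9 measured NRF2 target genes, ordered by their difference. Filled points are the 3 h array, open points the 0 h array and the dashed line is the floor of 5.70. The gap is widest for Nqo1 (9.21 at 3 h, 7.66 at 0 h) and Srxn1 (9.14 and 7.79), and Osgin1 is the member whose 3 h point lies to the left.

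Among the regulators, Nfe2l2 had a log2 value of 10.16 at 3 h and 9.98 at 0 h, a difference of 0.18. In 29.2% of all genes at or above the floor the difference was at least as high. Keap1, which encodes the adaptor that brings NRF2 to its ubiquitin ligase, had 8.86 at 3 h and 8.59 at 0 h, a difference of 0.27. Factor and inhibitor thus lay on the same side of 0, both by less than 1.5-fold.

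Nqo1 differed most among the members. It encodes the quinone oxidoreductase that reduces quinones without leaving a reactive semiquinone and is a standard readout of NRF2 in mouse tissue. Its value was 9.21 at 3 h and 7.66 at 0 h, a 2.92-fold higher level at 3 h (difference 1.55). It ranked 68th from the top of the 9284 genes at or above the floor, and 0.732% of them differed at least as much upward.

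Srxn1 encodes sulfiredoxin, which repairs peroxiredoxins whose active cysteine has been over-oxidised. It had 9.14 at 3 h and 7.79 at 0 h, a 2.54-fold higher level at 3 h (difference 1.34), and ranked 109th. Both Srxn1 and Nqo1 stood apart from the other members, the next of which, Gclc, differed by 0.54. Txnrd1, the cytosolic thioredoxin reductase, which returns electrons from NADPH to thioredoxin, had 8.73 at 3 h and 8.39 at 0 h. Its difference was 0.34, and its probe set is of a kind that can match several transcripts of a gene.

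Gclc and Gclm encode the catalytic and the modifier subunit of glutamate-cysteine ligase, the enzyme of the first and rate-limiting step of glutathione synthesis. Gclc had 10.47 at 3 h and 9.93 at 0 h, a 1.45-fold higher level at 3 h (difference 0.54). Gclm had 11.28 at 3 h and 10.89 at 0 h, a 1.31-fold higher level (difference 0.39). Both subunits were higher at 3 h, by less than 1.5-fold, and 8.18% and 14.2% of all genes differed at least as much upward as Gclc and Gclm did.

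Hmox1 encodes haem oxygenase 1, which opens the haem ring to give biliverdin, iron and carbon monoxide, and is repressed by BACH1 as well as induced by NRF2. It had 8.25 at 3 h and 7.78 at 0 h, a 1.39-fold higher level at 3 h (difference 0.47), and 10.4% of all genes differed at least as much upward. Osgin1, an oxidative stress-induced growth inhibitor gene, was the member that was lower at 3 h. It had 6.66 at 3 h and 7.06 at 0 h, a difference of -0.40, and 10.3% of all genes differed at least as much downward. Its values were the nearest of all members to the floor.

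**Figure D2:**
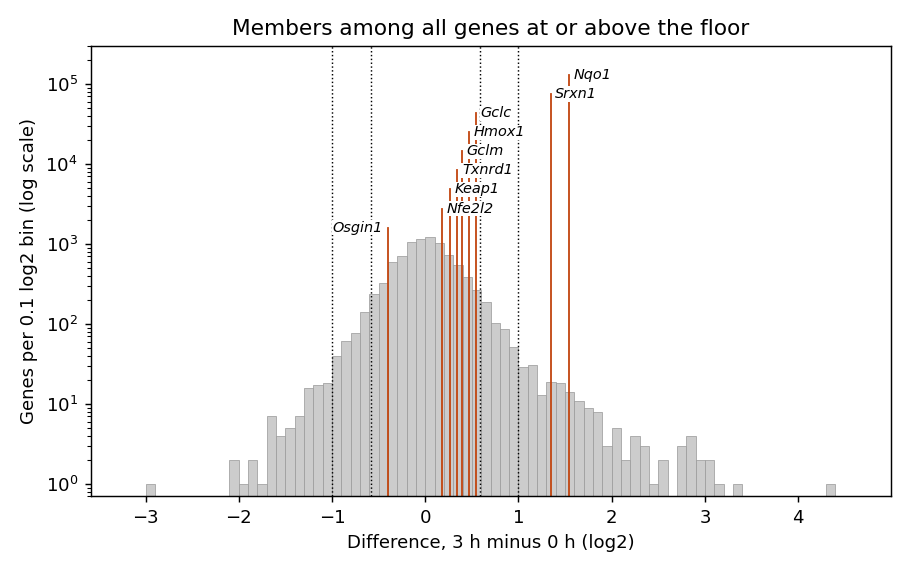
Histogram of the difference, 3 h minus 0 h (log2, horizontal axis), for the 9284 genes at or above the floor, with the number of genes per bin on a log scale. Red lines mark the 9 measured members, their heights serve only to separate the names, and dotted lines mark 1.5-fold and 2-fold in each direction. Nqo1 and Srxn1 lie beyond 2-fold, and the other 7 members lie within 1.5-fold, 6 of them above 0.

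The promoters of the members were searched for the letters that NRF2 and AP-1 factors are known to bind, because Srxn1 and Osgin1 differed in opposite directions. RefSeq promoter windows of the build GRCm38.p6 were found for 8 of the 10 listed genes, G6pdx included. Gclc and Hmox1 had no window and were not searched. For the others the 250 bases before each start were searched on both strands. The motifs were the antioxidant response element core TGACNNNGC, its form with G, TGAGNNNGC, and the AP-1 site TGANTCA, which reads alike on both strands and can overlap either core. Of 32851 windows of all genes, 10.2% held TGACNNNGC, 14.4% TGAGNNNGC, 23.0% at least 1 of these cores and 6.75% TGANTCA. In the windows of Nqo1 and Keap1 neither core nor the AP-1 site was found. Srxn1 and Osgin1 shared the letters TGAGTCAGC, which hold a core and an AP-1 site at once. These letters were in 0.347% of all windows. They were read from the matches of these 2 genes, so that share does not measure how unusual the shared letters are. Srxn1 held them on the gene strand starting 45 bases before the start, beside another AP-1 site 102 bases before it and another core, TGAGTCGGC, on the opposite strand 158 bases before it. Osgin1 held them on the opposite strand, starting 99 bases before the start. The stretches are printed 5′ to 3′ on the gene strand, with the matches in capitals. The Srxn1 stretch lies at chr2:152105348-152105505 on the + strand and the Osgin1 stretch at chr8:119437030-119437074 on the + strand.
Srxn1: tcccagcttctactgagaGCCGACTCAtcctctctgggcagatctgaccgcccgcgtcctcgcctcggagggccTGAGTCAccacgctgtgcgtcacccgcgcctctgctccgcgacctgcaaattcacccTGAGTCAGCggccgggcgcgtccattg
Osgin1: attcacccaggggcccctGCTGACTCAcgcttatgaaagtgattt

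Of the members with differences within 1.5-fold, Nfe2l2, Gclm and Txnrd1 held TGACNNNGC. These stretches are shown to set them beside those of Srxn1 and Osgin1. The Nfe2l2 match starts 240 bases before the start (chr2:75704877-75704913, - strand) and the Gclm match 134 bases before it (chr3:122245405-122245449, + strand). Txnrd1 has 3 windows for its alternative starts, and 1 of them held a match, 92 bases before that start (chr10:82859096-82859140, + strand). Which start gave the RNA measured here is not known from the array.
Nfe2l2: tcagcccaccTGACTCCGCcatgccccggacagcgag
Gclm: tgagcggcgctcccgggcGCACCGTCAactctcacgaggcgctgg
Txnrd1: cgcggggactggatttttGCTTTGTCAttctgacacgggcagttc
A match is a description of these windows and does not show that a factor bound there. The measured members with a match differed by between -0.40 (Osgin1) and 1.34 (Srxn1). G6pdx, whose RNA was not analysed here, also held TGACNNNGC, on the opposite strand 57 bases before its start. Nqo1, which differed most, had no match in the 250 bases searched. Bases outside these were not searched, so an absent match does not show that a gene lacks such a site.

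Genes that control NRF2 or share its binding sites went both ways. Of 13 at or above the floor, 8 were higher and 5 lower (9 and 4 after removal of an intensity trend), with a median difference of 0.14. Maff, a small MAF partner, was 2.92-fold lower at 3 h (6.71 at 3 h, 8.26 at 0 h), whereas the partners Mafg (-0.05) and Mafk (0.15) differed little. Nfe2, the erythroid relative of NRF2, had 10.07 at 3 h and 8.96 at 0 h (difference 1.11). It is also counted among the erythroid markers below. Sqstm1, an autophagy receptor that binds KEAP1 and is itself known as an NRF2 target, had 12.16 at 3 h and 11.40 at 0 h (difference 0.76). Gsk3b, a kinase that marks NRF2 for another ubiquitin ligase, differed by 0.33, and the repressor gene Bach1 by 0.32. Apart from Maff, Nfe2 and Sqstm1, all 10 others lay within 1.5-fold.

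Beyond the members, genes of glutathione synthesis and use had a median difference of 0.12 over 13 genes, 8 higher and 5 lower. Chac1, which encodes an enzyme that degrades glutathione, differed by 0.72, the glutathione peroxidase-like genes Gpx8 by 0.42 and Gpx7 by -0.31, and the glutaredoxin gene Glrx by 0.35. Glutathione reductase (Gsr, 0.31) and glutathione synthetase (Gss, 0.04) lay within 1.5-fold. The cystine transporter gene Slc7a11, a widely used NRF2 target, was below the floor on both arrays (4.48 at 3 h, 3.54 at 0 h), so its difference of 0.94 rests on signals near background.

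Glutathione S-transferase genes, many of which are NRF2 targets in mouse liver, ran the other way. Of 20 measured, 17 were lower at 3 h, with a median of -0.24, and of the 15 at the floor on both arrays 14 were lower and 1 was higher (Gstm5, 0.03). The median of those 15 was -0.25. With Gstt3, which reached the floor at 0 h only and so had to be lower, the median over 16 genes was -0.29. At least 1.5-fold lower were 3 of the 16, Gstt3 among them, where 4.80% of all genes at or above the floor were. Gstt3 (-0.87, 4.84 at 3 h and 5.72 at 0 h), Gstt1 (-0.75, 9.41 and 10.16), Gsta3 (-0.65, 7.31 and 7.97) and Gstt2 (-0.51) differed most. The direction of the median over these 16 and the count at 1.5-fold were the same after quantile normalization and after removal of an intensity trend. Hepatocytes express many of these transferases, and hepatocyte markers were lower in the same sample by a median of -0.19, with 15 of 17 lower (14 after quantile normalization). Their part in the result was not tested.

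The thioredoxin genes other than Txnrd1 and Srxn1 had a median of -0.04 over 8 genes, and none reached 1.5-fold. Txnip, which encodes a thioredoxin-binding inhibitor, differed by -0.44, the mitochondrial thioredoxin gene Txn2 by -0.40, Txnrd3 by 0.24 and Txndc17 by -0.17. NADPH-producing enzymes, the group to which G6pdx belongs, had a median of -0.16 over 13 genes, 6 higher and 7 lower (5 and 8 after quantile normalization). The folate enzyme gene Mthfd1 differed by -0.89, Mthfd2 by -0.42 and the transhydrogenase gene Nnt by -0.35, whereas malic enzyme 1 (Me1), a known NRF2 target, differed by 0.43. Pgd, the dehydrogenase that follows the product of G6pdx in the pentose phosphate pathway, had 11.82 at 3 h and 11.48 at 0 h (difference 0.33).

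The other genes of quinone, carbonyl and aldehyde detoxification had a median of -0.10 over 12 genes, 4 higher and 8 lower, and none reached 1.5-fold. The aldo-keto reductase gene Akr1b8 differed by 0.53, Aldh7a1 by -0.51, Akr1c13 by -0.43, Akr7a5 by -0.41 and Nqo2, the paralog of Nqo1, by -0.08. For haem breakdown and iron handling the median was 0.14 over 11 genes, again with none at 1.5-fold. Of these 11, 6 were higher and 5 lower (7 and 4 after removal of an intensity trend). The haem transporter gene Slc48a1 differed by 0.44, the haem-binding hemopexin gene Hpx by 0.38, the ferrochelatase gene Fech by 0.37 and the haem exporter gene Flvcr1 by 0.28. The constitutive haem oxygenase gene Hmox2 differed by -0.03. Of 5 efflux transporter genes at or above the floor 3 were higher, Abcc4 (0.48), Abcc1 (0.37) and Abcc5 (0.35), and Abcg2 differed by -0.03.

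Over all pathway lists together, members left out, 95 genes were at or above the floor, of which 42 were higher and 53 lower, with a median of -0.03. Among them 6 reached 1.5-fold upward and 5 downward, where 6.94% and 4.80% of all genes at or above the floor did. Cyp1b1 and Ahr among the 6, and Gstt3 among the 5, were below the floor on 1 array.

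**Figure D3:**
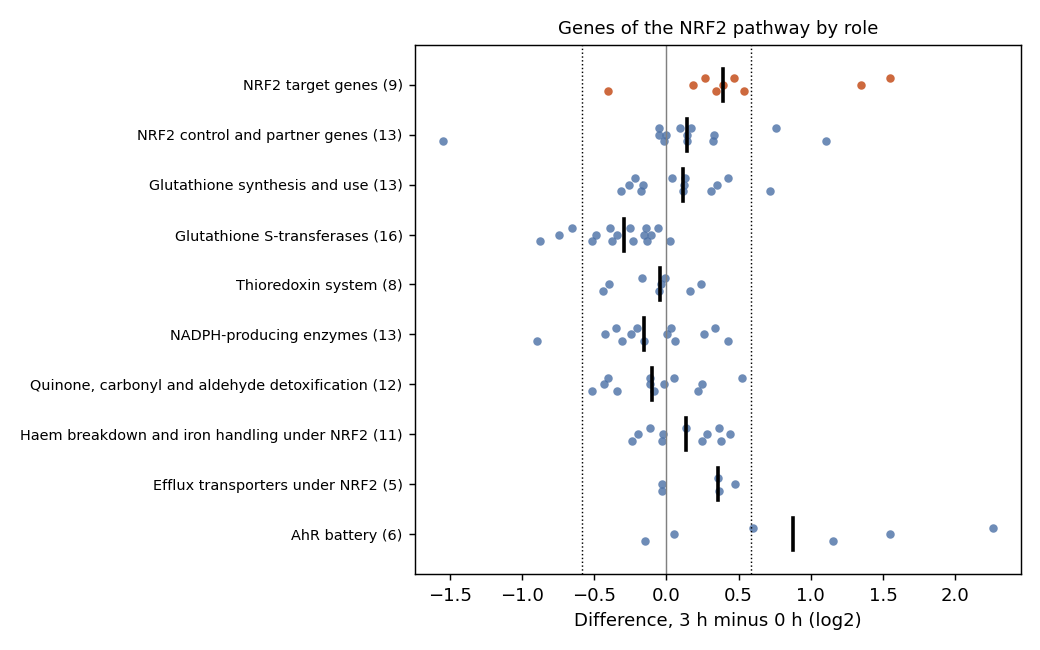
Difference, 3 h minus 0 h (log2, horizontal axis), of every gene at or above the floor in the members and in 9 lists of the pathway, with the number of such genes in brackets. Each point is a gene, black bars are medians and dotted lines mark 1.5-fold. The members' median is 0.39, and 15 of the 16 glutathione S-transferase genes lie below 0, Gstt3, which reached the floor at 0 h only, among them.

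Nqo1 is also a known target of the aryl hydrocarbon receptor (AhR), a ligand-activated factor that induces cytochrome P450 genes. Of that battery, Cyp1a1 had 9.40 at 3 h and 7.14 at 0 h (difference 2.26). Cyp1b1 had 6.17 at 3 h and 5.02 at 0 h (1.15), the receptor gene Ahr had 6.20 and 5.60 (0.60), and both were below the floor at 0 h. Tiparp, another AhR target, had 8.13 at 3 h and 8.08 at 0 h, and the partner gene Arnt differed by -0.15. Of the 9 measured genes of the battery, 7 were higher at 3 h, where 50.2% of all genes were with no floor. Of the 4 at the floor on both arrays 3 were higher. Nqo1 itself is in both counts, and 3 of the 9 were below the floor on both arrays. Ahr itself reached 1.5-fold as deposited but not after quantile normalization or removal of an intensity trend. The part of AhR in the difference of Nqo1 was not tested.

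Other stress gene lists gave medians on the other side of 0. Peroxiredoxins, peroxide enzymes and metallothioneins had a median of -0.16 over 11 genes, 5 higher and 6 lower. Over all 12 measured of the 15 listed, the median was near 0 (-0.02), with 6 higher and 6 lower. Mitochondrial superoxide dismutase (Sod2) differed by -0.72, and Sod1 (0.54), Prdx2 (0.44), a major peroxiredoxin of red cells, and Gpx3 (0.32) were on the higher side. Heat shock protein genes had a median of -0.26 over 14 genes, with Dnajb1 (-1.26) and Hsph1 (-0.91) lower and the small heat shock gene Hspb1 (0.92) higher. Cryab, another small heat shock gene, had 6.02 at 3 h and 4.53 at 0 h, where it was below the floor. Genes of the ATF4 response had a median of -0.12 over 18 genes, 6 higher and 12 lower. Atf3 (-1.20), Trib3 (-1.12) and Herpud1 (-0.85) were lower and Chac1 (0.72) was higher. Without replicates none of these differences between lists could be tested.

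**Figure D4:**
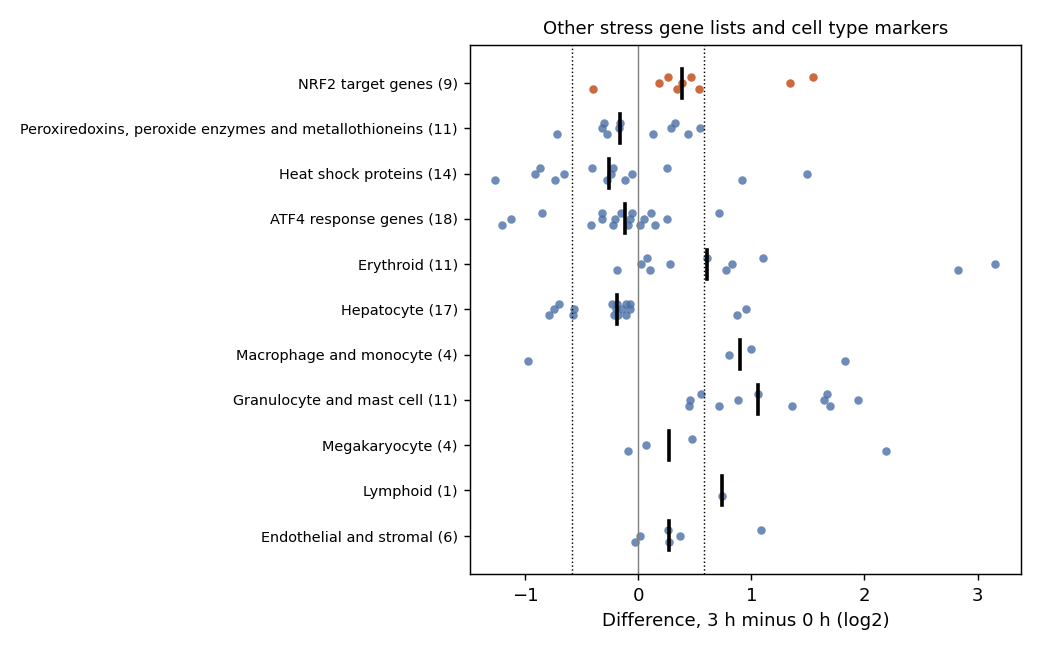
Difference, 3 h minus 0 h (log2, horizontal axis), of genes at or above the floor in the members, in 3 other stress gene lists and in 7 cell type marker lists, with the number of such genes in brackets. Each point is a gene, black bars are medians and dotted lines mark 1.5-fold. Genes that reached the floor on 1 array only are drawn too, among them 4 granulocyte markers and the erythroid marker Slc4a1, whose place above 0 follows from that. The 3 other stress lists have medians below 0.

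Markers of several cell types differed between the arrays in the same direction as the members. Most hepatocyte markers differed the other way. In bulk samples fewer cells of a type and less RNA per cell cannot be told apart. Erythroid markers, which check the labelled cell type, reached the floor in 11 of 13 genes at 3 h and 10 of 13 at 0 h, among them Klf1 (12.31 at 3 h, 12.03 at 0 h) and Ermap (11.13 and 11.06). Alas2 and Hba-x were below it on both arrays. Of all 13 measured, 12 were higher, with a median difference of 0.61, and all 13 summed to 16339 at 3 h and 11971.5 at 0 h on the linear scale. Epor, the receptor gene, was the marker that was lower (6.89 at 3 h, 7.08 at 0 h), above the floor on both arrays. Its bearing on the genotype labels was not tested. Hbb-bh1 had 9.83 at 3 h and 6.67 at 0 h, and Slc4a1 had 8.30 at 3 h and 5.47, below the floor, at 0 h. Hepatocyte markers reached the floor in 17 of 17 genes on both arrays, led by Afp (14.53 at 3 h, 14.60 at 0 h) and Alb (13.96 and 14.15), and summed to 111097 at 3 h and 118099 at 0 h on the linear scale. Of these 17, 2 were higher at 3 h and 15 lower (3 and 14 after quantile normalization), with a median of -0.19. The 2 higher, Krt8 (0.95) and Krt18 (0.88), differed most. Of 14 measured granulocyte and mast cell markers 13 were higher at 3 h, with a median of 0.80 over all 14. The 7 at the floor on both arrays were all higher, while Camp, Lcn2, Ngp and Prg2 reached it at 3 h only. All 14 summed to 12614 at 3 h and 6560 at 0 h on the linear scale. S100a9 had 11.67 at 3 h and 9.72 at 0 h, S100a8 differed by 1.70, and Mpo had 12.15 and 11.70.

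Of 16 macrophage markers 4 reached the floor, led by Lyz2 (9.80 at 3 h, 7.98 at 0 h) and Csf1r (9.32 and 8.32), with a median of 0.90 and 3 of 4 higher, whereas Vcam1 (-0.98) was lower. Over all 16 measured the median was 0.04, with 9 higher and 7 lower, and they summed to 2336 at 3 h and 1521 at 0 h on the linear scale. The other 12 were Adgre1, Cd68, Fcgr1, C1qa, C1qb, C1qc, Mrc1, Cd163, Spic, Timd4, Marco and Cd5l. All of these were below the floor on both arrays, Fcgr1 with 5.54 at 3 h and 4.30 at 0 h. Of 6 megakaryocyte markers 4 reached it at 3 h and 1 at 0 h. Gp1bb (6.68 at 3 h, 4.49 at 0 h) and Gp9 (6.10 and 5.63) were below it at 0 h, and Itga2b differed by -0.09. Of 9 lymphoid markers 1 reached it at 3 h, Ighm (6.44 at 3 h, 5.6989 at 0 h), and 0 at 0 h. Of 12 endothelial and stromal markers 6 reached it at 3 h and 5 at 0 h. Over all 12 the median was 0.05, with 7 higher and 5 lower. Acta2 differed by 1.08, Col1a1 by 0.37 and Col3a1 by 0.27. Macrophages are known to express Hmox1 and hepatocytes many NRF2 targets. The part of these cells in the members' differences was not tested.

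Likeness to Nqo1, the member that differed most, was measured as nearness of the difference over the 2 arrays. Tnfrsf12a (11.13 at 3 h, 9.58 at 0 h), Anxa1 (10.35 and 8.80) and Ccdc68 (7.01 and 5.47, below the floor at 0 h) were nearest, each differing by 1.54 or 1.55. With a single difference per gene such nearness is a description only.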

How the data were processed

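Log2 expression values of 20666 probe sets on 2 arrays were used as deposited. Per the submitters' processing notes the authors made these log2 values with RMA and the affy package, and per the labels' protocols the array targets were biotinylated cRNA from 1.5 µg of RNA. Tool versions, and which arrays shared the normalization, are not stated in the sources used. RMA hides a shift of all transcripts and shrinks differences between dim signals. A platform annotation named 17918 probe sets with 1 gene, 79 with several and 2669 with none, and only the first were used. Of these, 17767 matched a RefSeq table (GRCm38.p6) by Entrez ID, with 0 symbols changed. Probe sets of a gene were averaged (43 genes). Groups follow the titles. The comparison was 3 h minus 0 h, with thresholds of 1.5-fold and 2-fold, a floor at the median of all gene values, and no test.

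Members, lists and motifs were chosen with earlier results of these data known. Named were all members, up to 4 genes per list with the largest absolute difference whose probe sets had the same sign, the 2 most abundant and the 2 most different markers per cell type, and the 3 genes nearest to the leading member. Mafg, Mafk, Bach1, Slc7a11, Gsr, Gss, Gstm5, Pgd, Nqo2, Hmox2, Tiparp, Arnt and Vcam1, Camp, Lcn2, Ngp, Prg2 and the markers below the floor were named after their values were seen. Alternatives were quantile normalization, loess (span 0.3), each gene's brightest probe set, leaving out probe sets with ambiguous suffixes, no floor, a floor at the 75th percentile (7.96) and the mean. The steps were tested on simulated data. Tools were Python 3.11.15, numpy 2.4.6, pandas 2.3.3, statsmodels 0.14.6 and matplotlib 3.10.9.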

Additional observations from a re-analysis of the deposited data

How the results depend on the processing

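The difference of each member kept its sign under quantile normalization and removal of an intensity trend, and the largest shift was 0.05. Each member has 1 probe set. Taking the probe set with the highest mean or leaving out ambiguous ones therefore could not change the difference of a member that was kept. Without ambiguous probe sets Txnrd1 was lost, and with the floor at the 75th percentile Osgin1 was lost. The counts of members at least 1.5-fold and 2-fold higher stayed at 2, and the counts lower stayed at 0, under each of these settings. Having no floor could not change the counts, because all 9 members were above it. The median of 0.39 lay between 0.39 and 0.45 under these settings. The mean in place of the median gave 0.52, since Nqo1 and Srxn1 weigh more in it. A change of under 0.1 was taken as none, as there is no replicate spread to compare it with. No paired analysis was possible because each group holds 1 array, and no replicate could be left out for the same reason. Signal below the floor on at least 1 array limits the differences of Slc7a11, Gstt3, Cyp1b1, Ahr, Cryab, Slc4a1, Gp1bb, Gp9, Ighm, Camp, Lcn2, Ngp, Prg2 and Ccdc68, among other listed genes. Probe sets with ambiguous suffixes also gave the values of Cyp1a1, Hbb-bh1, Slc4a1, Sqstm1, Mthfd1, Hspb1, Hsph1, Cryab, Krt8 and S100a8, among other listed genes.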
